A study of Mus musculus with 8 samples.

Results

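The transcriptional response to CD70 was compared between regulatory T cells (Tregs) and conventional CD4+ T cells (Tconvs). For each gene, the change from control to CD70 transgenic Tregs was set against the change from control to CD70 transgenic Tconvs, on log2(value + 5), and the difference between these responses was tested. Genes were taken from the table when they reached a value of 60 in at least 2 of the 8 libraries, which kept 12816 of 52636 rows. The difference passed the test in 131 genes, of which 25 had the higher response in Tregs and 106 the higher response in Tconvs. Rows are counted as genes here. Of the called rows, 9 share 51.7% or more of their exon length with another gene (Gm16033 and Gm16034 with Adam19, Gm42674 and S100a4 with each other, Ms4a6c and the 2 rows of Itgam among them), and Gm15459 and Gm26825, also of the 9, have identical values, so that these are not all separate measurements.

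Tregs (CD4+ Foxp3+) and Tconvs (CD4+ Foxp3-) were sorted from the spleens of Foxp3eGFP reporter mice aged 6 to 8 weeks. The control mice were CD27+/- and the transgenic mice were CD11c-Cd70tg;CD27+/- (CD70Tg), so that all 4 groups carried a single functional copy of the gene for the CD70 receptor. The CD11c promoter places CD70 on dendritic cells and other CD11c+ cells, and the T cells were studied without any other treatment. There were 2 libraries in each group, each made from 200000 sorted cells. The control columns of the table are named KO, and the sample labels call these mice WT. The sources do not say whether the 2 libraries of a group came from separate mice, so that the p-values measure the spread between these libraries alone. An antibody against CD25 was in the depletion cocktail for Tconvs and not in that for Tregs, so that CD25+ cells were depleted from both Tconv groups.

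CD27 is a costimulatory receptor of the TNF receptor superfamily found on most T cells, and its ligand CD70 is a member of the TNF family. CD27 signals through TRAF adaptor proteins to NF-kB and favours the survival of activated T cells and their differentiation into interferon-gamma producing effectors. Tregs depend on the transcription factor Foxp3 and restrain other T cells, among other means through CTLA-4, IL-10 and the breakdown of extracellular ATP by CD39. A proportion of Tregs are in an activated, effector state at rest, with inhibitory receptors and cytokines that a resting Tconv does not make.

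The deposited values are reads per gene scaled to 20 M in each library and rounded up. From the value of 1 read in each library, the Tconv libraries held 6.9 to 33.14 M reads on genes and the Treg libraries 1.9 to 4.52 M. The value given by 3 reads was 2 to 9 in Tconvs and 14 to 32 in Tregs, and lower values are counting noise. The libraries are named here by the number in their column, with F1 and F3 for control Tconvs, F2 and F4 for CD70Tg Tconvs, F5 and F7 for control Tregs, and F6 and F8 for CD70Tg Tregs. Foxp3 was between 19769 and 21367 in Tregs and between 1039 and 1497 in Tconvs, and Cd4 was at least 16100 in every library. The control Tconv libraries differed in genes of T follicular helper cells and of activation, since Pdcd1 was 1867 in F1 and 547 in F3, and Il21 was 493 and 74. The summed markers of neutrophils, erythroid cells, NK and CD8 T cells and B cells also differed between groups, and their values are given further on.

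The responses differed more often through Tconvs than through Tregs. The 131 genes were 1.02% of those tested, with 0.195% called as higher in Tregs and 0.827% as higher in Tconvs, and 113 had an absolute difference over 1. Over all genes tested the median difference was -0.08, and 61.1% of the differences were below 0. In all 131 genes every change between a transgenic and a control Treg library lay beyond every such change in Tconvs, which was so for 24.3% of the genes tested. Among the 106 genes with the higher response in Tconvs, 100 rose in Tconvs, 30 rose in Tregs and 11 fell in Tregs. The 30 include Gcg, whose Treg values all lay at or under the value of 3 reads. Of the 25 with the higher response in Tregs, 20 rose in Tregs and 6 fell in Tconvs. These directions are part of the contrast that chose the genes and describe it. Among all genes tested, 6.82% rose and 1.99% fell in Tconvs, and 3.94% rose and 3.46% fell in Tregs.

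**Figure D1:**
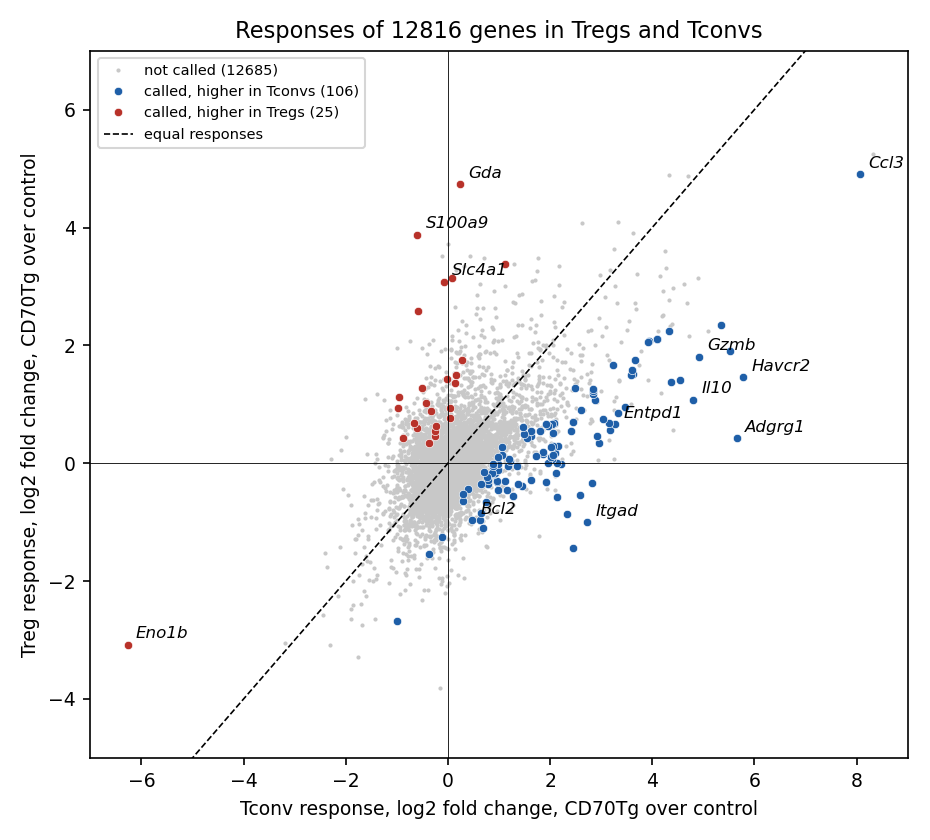
The plot of the responses gives for each of the 12816 genes the log2 fold change from control to CD70Tg in Tconvs (x axis) and in Tregs (y axis), with 106 called genes below and 25 above the dashed line of equal responses. Adgrg1 lies at 5.66 and 0.43, Gda at 0.24 and 4.74, and Ccl3 at 8.06 and 4.90.

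The call depended on the depth and on single libraries more than its direction did. All 131 genes kept the sign of their difference under every alternative that tested them. When each library was left out in turn, 62 to 269 genes were called, with 62 without F6, 66 without F4, 79 without F5, 82 without F7 and 269 without F2. The calls of 40 of the 131 genes held without each library in turn, of which 35 were higher in Tconvs and 5 in Tregs. With all libraries thinned to the 1.9 M reads of the shallowest, 31 genes were called, 2 of them higher in Tregs. With no minimum value, limma called 0 genes, with 2249 at an unadjusted p under 0.05. With a mean of at least 60 in place of the minimum 133 were called, and with a value above 10 in every library 126. With voom on reads, at the minimum of 60, 63 were called. For single genes, the losses given are those on leaving out a library unless another setting is named, and with no minimum value every call was lost. Losses with other settings are named for some genes only, so that a call without one named may not have held.

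Adgrg1 had the largest difference of all genes called as higher in Tconvs. It encodes GPR56, an adhesion G protein-coupled receptor of cytotoxic lymphocytes, on chromosome 8 from 94974751 to 95014217 (GRCm38, GENCODE M21). Its values were 26 and 11 in control Tconvs and 1067 and 1179 in CD70Tg Tconvs. In Tregs they were 59 and 84 in controls and 95 and 98 under the transgene. The CD70Tg Tconv libraries stood apart from the other 6, whereas the Treg groups lay close to each other without overlap. Tconvs were 60.7-fold higher and Tregs 1.35-fold higher than their controls, and the difference between the responses was -5.23 ± 0.48 (SE) with a 95% interval of -6.26 to -4.21 (limma, adjusted p = 3.5e-05). The Treg response itself did not pass the test (adjusted p = 0.52). Adgrg1 was higher in Tregs than in Tconvs by 1.76 on the log2 scale in controls, and the same difference was -3.47 under the transgene. Summed markers of NK and CD8 T cells, a list that includes Eomes and Gzma, were 1927 and 2081 in control and 5021 and 6301 in CD70Tg Tconvs. In Tregs the sum was 869 and 1048 in controls and 2605 and 2498 under the transgene. The part of NK and CD8 T cells in the Adgrg1 difference was not tested.

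Havcr2, on chromosome 11 from 46454935 to 46481255, encodes TIM-3, an inhibitory receptor of terminally differentiated effector cells. Its values were 13 and 9 in control Tconvs and 666 and 1123 in CD70Tg Tconvs. In Tregs they were 190 and 298 in controls and 586 and 756 under the transgene. The CD70Tg groups of both subsets overlapped each other, while control Tregs lay far above control Tconvs. Havcr2 rose 81.3-fold in Tconvs and 2.75-fold in Tregs, with a difference of -4.31 ± 0.42 (adjusted p = 5.7e-05). With the libraries thinned to equal depth the call was lost (adjusted p = 0.11).

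Il10, on chromosome 1 from 131019845 to 131024974, encodes the suppressive cytokine IL-10. Its values were 30 and 3 in control Tconvs and 340 and 629 in CD70Tg Tconvs, and 253 and 307 in control Tregs and 512 and 691 in CD70Tg Tregs. Tconvs under the transgene overlapped with CD70Tg Tregs, and control Tconvs lay below all other groups. Il10 rose in Tconvs (log2 fold change 4.80, adjusted p = 3.6e-06), and in Tregs its change of 1.08 did not pass the test (adjusted p = 0.2). The difference was -3.72 ± 0.68 (adjusted p = 0.011). The call was lost without F4 or without F6, with an adjusted p of at most 0.08, as well as with voom on reads (adjusted p = 0.075) and after thinning (adjusted p = 0.26).

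**Figure D2:**
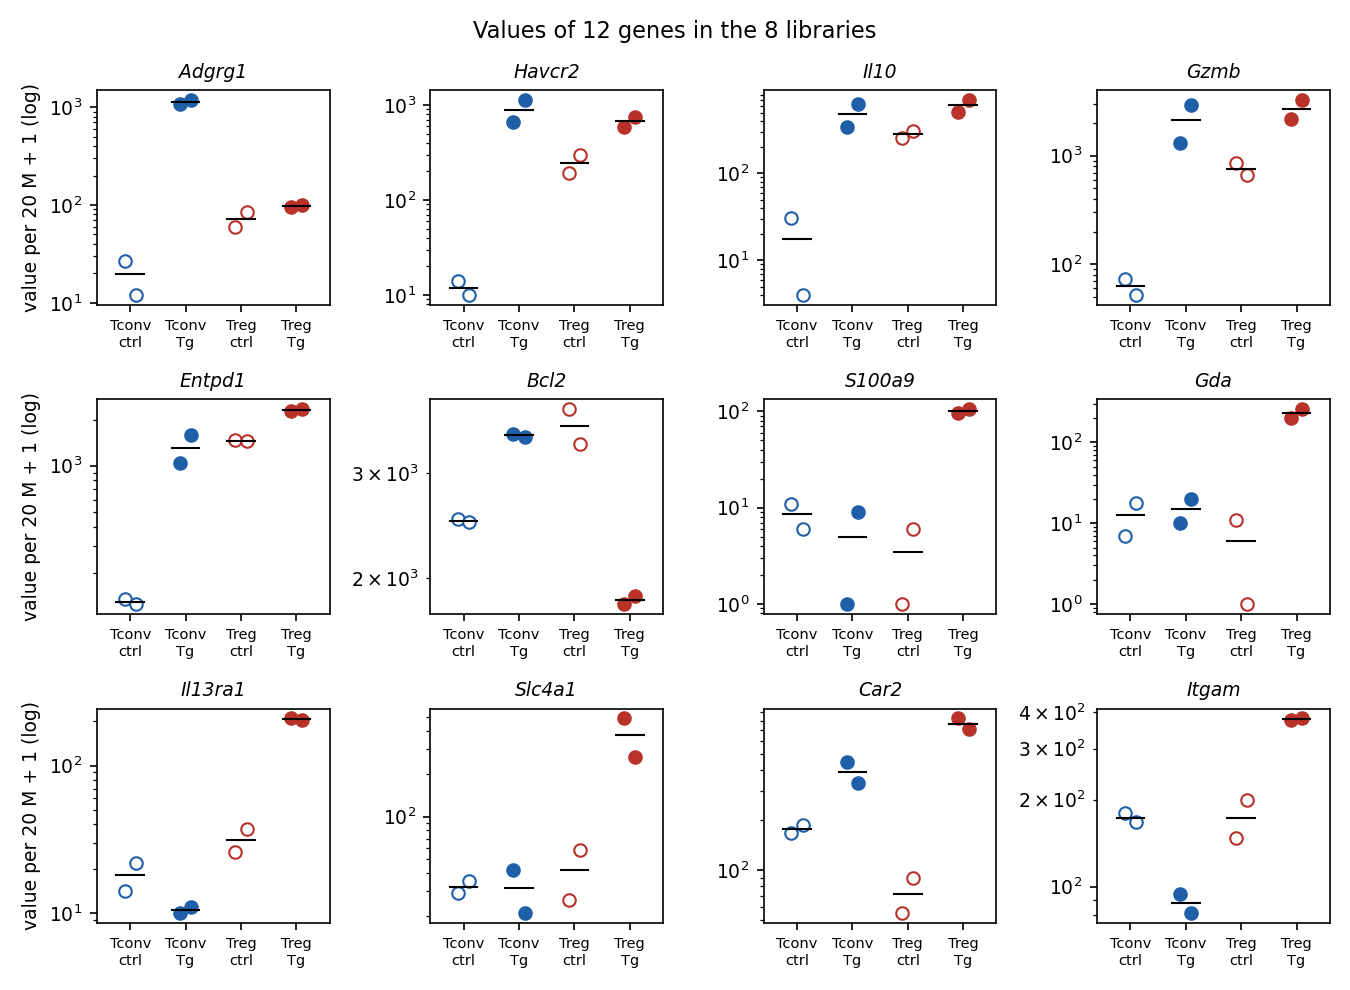
The plots of single genes give the values of 12 genes in each of the 8 libraries on a log axis (value per 20 M reads, plus 1), with open circles for control and filled circles for CD70Tg libraries, blue for Tconvs and red for Tregs, and a bar at the mean of the values plus 1. Adgrg1 is high in CD70Tg Tconvs only, S100a9 and Gda in CD70Tg Tregs only, and Havcr2 and Il10 start high in control Tregs.

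The stretch of 250 bases before the transcript start is shown for these genes where the RefSeq table held it, so that the sequence ahead of the genes with the largest differences can be read beside their values. The sequences are from RefSeq (GRCm38.p6), 5′ to 3′ on the strand of the gene, with matches to AP-1 (TGANTCA), T-box (GGTGTNA), STAT (TTCNNNGAA), NF-kB and interferon response letters on either strand in capitals. Adgrg1 has 2 starts, at chr8:94976859-94977108 (+) with a T-box match and at chr8:94984149-94984398 (+) with 2 AP-1 matches, and Havcr2 has an AP-1 match in chr11:46454681-46454930 (+). Of all 32851 promoters, 6.75% held the AP-1 letters and 8.61% the T-box letters, and a match is a description of the sequence and not a site. The printed matches do not overlap each other.
Adgrg1 start 1: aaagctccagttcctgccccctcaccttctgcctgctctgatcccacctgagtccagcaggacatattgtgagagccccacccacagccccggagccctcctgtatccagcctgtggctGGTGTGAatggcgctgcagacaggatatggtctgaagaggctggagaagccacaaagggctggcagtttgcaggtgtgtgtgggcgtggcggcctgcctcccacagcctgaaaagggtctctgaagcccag
Adgrg1 start 2: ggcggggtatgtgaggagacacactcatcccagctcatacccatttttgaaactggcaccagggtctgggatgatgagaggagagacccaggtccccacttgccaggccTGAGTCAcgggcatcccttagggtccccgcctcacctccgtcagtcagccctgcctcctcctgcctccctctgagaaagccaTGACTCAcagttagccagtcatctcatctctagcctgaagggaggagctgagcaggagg
Havcr2: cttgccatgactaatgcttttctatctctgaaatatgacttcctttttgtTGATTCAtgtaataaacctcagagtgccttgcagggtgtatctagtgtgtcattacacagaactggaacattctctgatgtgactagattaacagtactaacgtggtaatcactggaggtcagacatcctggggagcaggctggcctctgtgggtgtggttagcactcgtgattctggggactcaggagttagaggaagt

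Most genes with the higher response in Tconvs were genes that control Tregs already made. A gene was put in this class when control Tregs exceeded control Tconvs by at least 1 on the log2 scale and had a mean of at least 60. It held 73 of the 106 genes, and 13.3% of all genes tested. The control libraries enter both the class and the response, and a low control Tconv value raises both, so that these counts are a description. All 73 rose in Tconvs. In Tregs 23 rose, 1 fell and 49 did not pass the test. The median log2 fold change was 2.05 in Tconvs and 0.42 in Tregs. The median excess of Tregs over Tconvs was 2.38 in controls and 0.68 under the transgene. With the transgene, 38 of the 73 genes were still higher in Tregs, 14 were higher in Tconvs and 21 did not pass the test, while among all genes tested 22.6% were higher in CD70Tg Tregs and 20.1% in CD70Tg Tconvs.

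**Figure D3:**
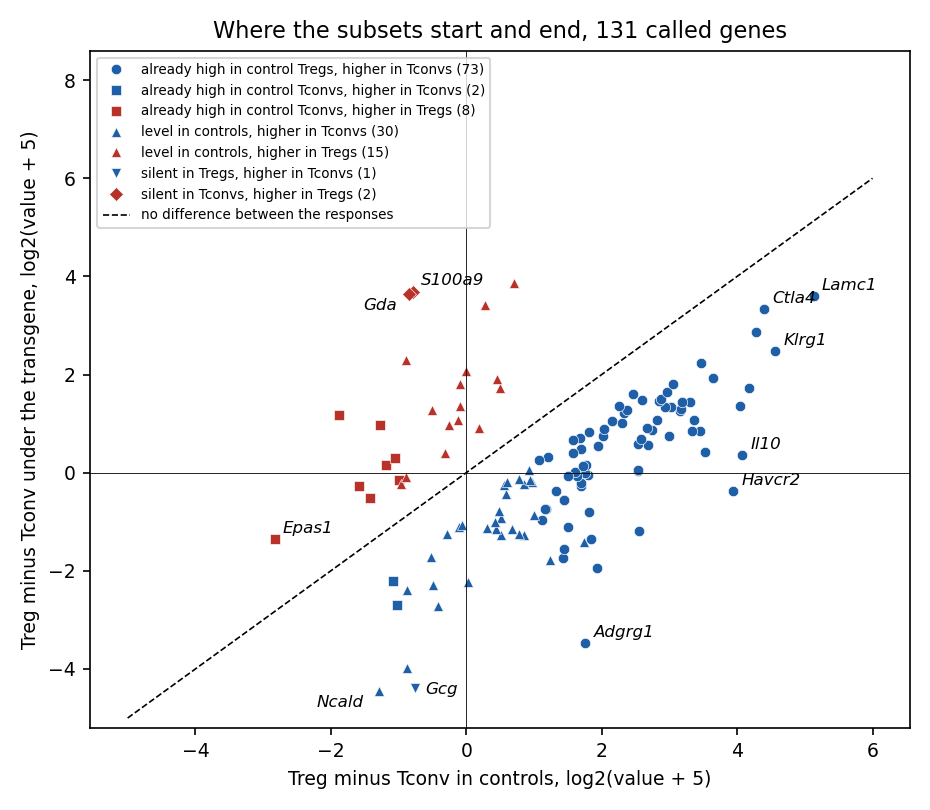
The plot of the starting and end points gives for the 131 called genes the Treg minus Tconv difference on log2(value + 5) in controls (x axis) and under the transgene (y axis), with blue for higher and red for lower Tconv responses and the symbols for the classes. The 73 blue circles lie on the right, at a median of 2.38 in controls and 0.68 under the transgene.

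Entpd1, which encodes CD39, the ectoenzyme that Tregs use to degrade ATP, was 133 and 124 in control Tconvs and 1046 and 1573 in CD70Tg Tconvs. It was 1461 and 1441 in control Tregs and 2257 and 2333 in CD70Tg Tregs. Of the CD70Tg Tconv libraries, F4 lay above control Tregs and F2 below them. The rise was 10.2-fold in Tconvs and 1.58-fold in Tregs, and the difference -2.61 ± 0.24 (adjusted p = 3.5e-05). Cd38, an ectoenzyme that consumes NAD, was 113 and 141, then 793 and 1302 in Tconvs, against 471 and 447, then 554 and 609 in Tregs. The difference for Cd38 was -2.62 ± 0.32 (adjusted p = 0.00041), and the Treg response did not pass the test (adjusted p = 0.42).

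Gzmb encodes granzyme B, a protease of cytotoxic granules. It was 72 and 51 in control Tconvs, 1323 and 2941 in CD70Tg Tconvs, 850 and 666 in control Tregs, and 2174 and 3246 in CD70Tg Tregs. The transgenic groups overlapped, and control Tregs were above control Tconvs by 3.53 on the log2 scale. The difference was -3.10 ± 0.41 (adjusted p = 0.00087), and it did not pass with voom on reads (adjusted p = 0.074). Plek, which encodes pleckstrin, a substrate of protein kinase C in blood cells, was 123 and 111, then 2029 and 3087 in Tconvs, and 326 and 324, then 805 and 892 in Tregs. It rose in both subsets, and the difference was -2.99 ± 0.28 (adjusted p = 3.5e-05).

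Prdm1, which encodes Blimp-1, a driver of effector differentiation, was 239 and 245 in control and 911 and 1129 in CD70Tg Tconvs, and 1582 and 2080 in control and 2853 and 2909 in CD70Tg Tregs. It rose in both subsets and more in Tconvs (difference -1.38 ± 0.22, adjusted p = 0.0044). Runx2 and Rgs1 were chosen after their values were seen. Runx2 rose by 3.63 on the log2 scale in Tconvs and by 1.51 in Tregs (difference -2.12 ± 0.35, adjusted p = 0.0051, lost with voom on reads at 0.057). Rgs1, a regulator of chemokine receptor signalling, rose in Tconvs, and its Treg response did not pass (adjusted p = 0.49). It was 184 and 268, then 750 and 1357 in Tconvs, and 2053 and 2015, then 2289 and 2708 in Tregs (difference -1.87 ± 0.31, adjusted p = 0.0063).

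In a few genes of the class the order of the subsets turned. Itgad, which encodes the integrin alpha D chain, was 56 and 63 in control and 306 and 578 in CD70Tg Tconvs, whereas it was 326 and 425 in control and 220 and 153 in CD70Tg Tregs. It rose in Tconvs by 2.72 (adjusted p = 1.2e-05), and its lower values in Tregs did not pass (adjusted p = 0.056). The difference was -3.73 ± 0.43 (adjusted p = 0.00034). The row 4931431B13Rik, with a difference of -3.88, lies antisense to Itgad and shares 27.0% of its exon length with it, so that reads of both may be counted in either. The call of 4931431B13Rik was lost without F4 (difference -3.53) and after thinning (adjusted p = 0.062). Car5b, a mitochondrial carbonic anhydrase, had a difference of -3.20 ± 0.47 (adjusted p = 0.0028). Cst7, which encodes the cysteine protease inhibitor cystatin F, ended at overlapping values. It was 736 and 580, then 1441 and 2244 in Tconvs, and 2364 and 2212, then 1651 and 1838 in Tregs (difference -1.85 ± 0.25, adjusted p = 0.0012, lost after thinning at 0.062).

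Genes without such a gap in controls, or too low in them to be placed, are called level in controls and made up 30 of the 106 genes with the higher response in Tconvs, and 80.9% of all genes tested. Bcl2, which protects lymphocytes from cell death, moved in opposite directions. It was 2512 and 2480 in control and 3492 and 3445 in CD70Tg Tconvs, whereas it was 3839 and 3359 in control and 1808 and 1865 in CD70Tg Tregs. It rose by 0.47 in Tconvs (adjusted p = 0.012) and fell by 0.97 in Tregs (adjusted p = 6.3e-05). The difference was -1.44 ± 0.16 (adjusted p = 0.00026). No group overlapped with its control. The row D630008O14Rik, antisense to Bcl2 and sharing 27.1% of its exon length, had a difference of -1.58. Lax1, an adaptor that restrains antigen receptor signalling, also rose in Tconvs and fell in Tregs (difference -1.43 ± 0.19, adjusted p = 0.00087), as did Myo6, a myosin (difference -1.51 ± 0.25, adjusted p = 0.0049, lost with voom on reads at 0.11 and after thinning at 0.15).

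Other genes of this class rose in both subsets. Chsy1, an enzyme of chondroitin sulphate synthesis, was 352 and 327, then 1980 and 3169 in Tconvs, and 452 and 526, then 1014 and 1066 in Tregs (difference -1.78 ± 0.27, adjusted p = 0.0029, lost with voom on reads at 0.064). Ccl3, which encodes the chemokine MIP-1 alpha, was 8 and 3, then 2415 and 3050 in Tconvs, and 15 and 53, then 868 and 1175 in Tregs. The control libraries were at most 53, and the difference of -3.16 ± 0.56 (adjusted p = 0.0097) was lost without F4 or F6 (adjusted p at most 0.077), with voom on reads (0.12) and after thinning (0.26). The values of Ccl4, its neighbour and paralog, were similar, and its difference of -3.07 ± 0.74 did not pass (adjusted p = 0.062).

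Kcnk5, a potassium channel, was 178 and 113, then 611 and 1240 in Tconvs, and 98 and 57, then 32 and 77 in Tregs. Its difference of -3.11 ± 0.58 (adjusted p = 0.013) was lost without F4, F5 or F6 (adjusted p at most 0.1), with voom on reads (0.34) and after thinning (0.28). Ncald, which encodes the calcium sensor neurocalcin delta, was 20 and 19, then 476 and 682 in Tconvs, and at or under the value of 3 reads in 3 of the 4 Treg libraries, with 39 in F8. Its difference of -3.14 ± 0.68 (adjusted p = 0.033) was lost without any library but F8, with an adjusted p of at most 0.23, as well as with a pseudocount of 1 (0.15), TMM factors (0.057), median-of-ratios factors (0.058), voom on reads (0.36) and thinning (0.23). Ncald reached the minimum value only through the CD70Tg Tconv libraries, where it therefore had to be high.

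Only Gcg was called among the 58 tested genes that were silent in Tregs, that is at or under 20 or the value of 3 reads in all 4 Treg libraries, beside 0.827% of all genes called as higher in Tconvs and 1.02% in either direction. Gcg, the preproglucagon gene of the pancreatic islet and gut, was 4 and 3 in control Tconvs, 317 and 471 in CD70Tg Tconvs, 0 and 0 in control Tregs, and 11 and 17 in CD70Tg Tregs. It was at least 71.6-fold higher in CD70Tg than in control Tconvs, taking the value of 3 reads in the controls, and no fold is given in Tregs, where no library was above that value. The difference was -3.62 ± 0.71 (adjusted p = 0.019), and the call was lost without F2, F3, F4 or F6 (adjusted p at most 0.21) and with a pseudocount of 1 (0.43), voom on reads (0.22) and thinning (0.19). Gcg, like Ncald, reached the minimum value only through the CD70Tg Tconv libraries. The remaining 2 genes of this direction, Prag1 and Btbd11, were higher in control Tconvs and fell in Tregs. Prag1, a pseudokinase, was 1475 and 1285, then 698 and 676 in Tconvs, and 782 and 583, then 126 and 82 in Tregs (difference -1.67 ± 0.30, adjusted p = 0.0097, lost without F5 at 0.065). Btbd11 had a difference of -1.13 ± 0.21 (adjusted p = 0.013). It was -1.21 to -1.06 with a library left out, and the call was lost without F3, F4, F5 or F7. The calls of Prag1 and Btbd11 were also lost with voom on reads (adjusted p = 0.11 for both) and after thinning (0.14 and 0.065).

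The 25 genes with the higher response in Tregs held 15 that were level in controls, 8 that were higher in control Tconvs and 2 that were silent in Tconvs. Of all genes tested, 80.9% were level in controls, 4.01% were high in control Tconvs and 1.31% were silent in Tconvs. No gene of this direction was already high in control Tregs. The 2 genes silent in Tconvs were S100a9 and Gda, among 168 tested genes with all 4 Tconv libraries at or under 20 or the value of 3 reads. Among all genes tested, 0.195% were called as higher in Tregs and 1.02% in either direction. A gene silent in Tconvs can reach the minimum value only through Treg libraries. S100a9 and Gda reached it only through CD70Tg Tregs, where they therefore had to be high, and these counts are a description.

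S100a9, on chromosome 3 from 90692632 to 90695721, encodes a subunit of calprotectin, a calcium-binding protein abundant in neutrophils and monocytes. Its values were 10 and 5 in control Tconvs, 0 and 8 in CD70Tg Tconvs, 0 and 5 in control Tregs, and 95 and 104 in CD70Tg Tregs. The CD70Tg Treg libraries stood far above the other 6, which were at most 10. They were at least 6.86-fold higher than control Tregs, taking 3 reads in the controls, and the difference was 4.49 ± 0.89 (adjusted p = 0.019). The call was lost without F1, F2, F5, F6 or F8 (adjusted p at most 0.067), with a pseudocount of 1 (0.085), with voom on reads (0.073) and after thinning (0.6).

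Summed neutrophil markers were also highest in the CD70Tg Treg libraries. Of the 16 neutrophil markers, 2 reached the minimum value for the test, S100a9 and the gelatinase gene Mmp9, whose difference of 0.70 did not pass (adjusted p = 0.65). The summed value of the 16 markers was 196 and 106 in control Tconvs, 125 and 275 in CD70Tg Tconvs, 341 and 342 in control Tregs, and 1009 and 1208 in CD70Tg Tregs. S100a8, the other subunit of calprotectin, was 5 and 0 in control and 74 and 55 in CD70Tg Tregs. Ngp and Camp were at most 32 in CD70Tg Tregs, where 3 reads correspond to a value of 32 in F6 and 17 in F8. Of the other markers in the list, Fcnb was at 0 in all libraries, and Mpo, Elane and Ly6g were at most 11 in any library. Cells bearing GR1 were depleted before the sort, which took CD3+ CD4+ GFP+ cells as Tregs. The part of neutrophils in the S100a9 difference was not tested, and in these bulk samples more cells of a type and more RNA per cell cannot be told apart.

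Gda, on chromosome 19 from 21391307 to 21473445, encodes guanine deaminase, an enzyme of purine breakdown. Its values were 6 and 17 in control Tconvs, 9 and 19 in CD70Tg Tconvs, 10 and 0 in control Tregs, and 199 and 256 in CD70Tg Tregs. Only the CD70Tg Treg libraries were above 20. They were at least 15.7-fold higher than control Tregs, taking 3 reads in the controls, and the difference was 4.50 ± 0.83 (adjusted p = 0.012). It was lost without F3 or F8 (adjusted p at most 0.051), with a pseudocount of 1 (0.064), with voom on reads (0.11) and after thinning (0.26).

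The promoters of S100a9 at chr3:90695722-90695971 (-) and of Gda at chr19:21472662-21472911 (-) are shown for comparison with those above. None of the letters searched was found in these windows.
S100a9: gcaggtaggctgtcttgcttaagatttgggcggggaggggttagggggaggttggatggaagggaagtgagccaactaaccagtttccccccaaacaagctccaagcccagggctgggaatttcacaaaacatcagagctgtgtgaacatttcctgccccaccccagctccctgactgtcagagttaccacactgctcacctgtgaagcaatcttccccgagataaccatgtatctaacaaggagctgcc
Gda: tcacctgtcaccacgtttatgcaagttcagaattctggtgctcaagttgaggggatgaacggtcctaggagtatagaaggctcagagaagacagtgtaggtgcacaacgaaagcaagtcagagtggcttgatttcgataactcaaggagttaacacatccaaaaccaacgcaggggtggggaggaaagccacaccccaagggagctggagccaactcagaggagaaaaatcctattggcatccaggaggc

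Genes of the erythroid lineage were higher in CD70Tg Tregs as well. Slc4a1, the anion exchanger of red cells, was 28 and 34, then 41 and 20 in Tconvs, and 25 and 57, then 492 and 261 in Tregs (difference 3.16 ± 0.64, adjusted p = 0.022, lost without F3, F4, F5 or F6 at up to 0.13). Aqp1, a water channel of red cells and endothelium, was 56 and 72, then 67 and 68 in Tconvs, and 10 and 18, then 209 and 120 in Tregs (difference 3.06 ± 0.56, adjusted p = 0.012, lost without F3, F4 or F6 at up to 0.063). The calls of Slc4a1 and Aqp1 were also lost with voom on reads (adjusted p = 0.075 for both) and after thinning (0.26 and 0.22). With median-of-ratios factors that of Slc4a1 was lost as well (0.05). Car2, a carbonic anhydrase of red cells and other tissues, rose in both subsets, from 166 and 185 to 447 and 336 in Tconvs and from 54 and 88 to 826 and 707 in Tregs (difference 2.25 ± 0.37, adjusted p = 0.0049). Of the 15 erythroid and platelet markers 7 were tested, and 2 were called as higher in Tregs (Slc4a1 and Car2), which is 28.6% beside 0.195% of all genes tested. Slc4a1, like S100a9, Gda and Il13ra1, reached the minimum value only through the CD70Tg Treg libraries, and a gene that enters in this way has to be high there.

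The summed value of these 15 markers was 1096 and 1796 in control Tconvs, 1533 and 1346 in CD70Tg Tconvs, 685 and 1841 in control Tregs, and 5543 and 3535 in CD70Tg Tregs. The haemoglobin genes rose in Tregs without a call for the difference, for example Hbb-bt with a difference of 2.40 (adjusted p = 0.076). The platelet genes Pf4 and Gp9 were at 0 in CD70Tg Tregs. Ter119+ cells were in the depletion and the sort required CD3 and CD4. The part of red cell precursors in the differences of Slc4a1, Aqp1 and Car2 was not tested.

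Itgam, which encodes the integrin CD11b of myeloid cells, NK cells and some activated lymphocytes, fell in Tconvs from 178 and 166 to 93 and 80 and rose in Tregs from 146 and 198 to 377 and 381. The difference was 2.09 ± 0.36 (adjusted p = 0.0087), and its call was lost without F5 (adjusted p = 0.05). The call of Itgam was also lost after thinning (adjusted p = 0.26). A second row named Itgam shares 71.8% of its exon length with the first and had a difference of 1.90, so that both hold many of the same reads. The call of this second row was lost without F1, F3, F4, F5, F7 or F8, and after thinning (difference 1.28, adjusted p = 0.63). Lyz2, the lysozyme of myeloid cells, was 788 and 835, then 436 and 643 in Tconvs, and 641 and 872, then 1181 and 1077 in Tregs (difference 1.20 ± 0.27, adjusted p = 0.041). Its difference was 0.92 to 1.48 with a library left out, and the call was lost without F2, F3, F5, F6 or F8. It was also lost with a pseudocount of 1 (adjusted p = 0.053), voom on reads (0.18) and thinning (0.26).

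Itgam and Lyz2 were the 2 called among the 16 tested of 22 macrophage and dendritic cell markers, both as higher in Tregs, which is 12.5% beside 0.195% of all genes tested. Of the 16 tested markers 10 had a difference below 0 and 6 above, with a median of -0.42. The summed value of the 22 markers was 2566 and 3039 in control and 2334 and 3377 in CD70Tg Tconvs, and 7585 and 8062 in control and 7020 and 7025 in CD70Tg Tregs. It was thus not higher in CD70Tg than in control Tregs. Of the defining markers, Csf1r was 1500 and 1205 in control and 930 and 762 in CD70Tg Tregs, and Cd209a was at 0 in both CD70Tg Treg libraries.

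**Figure D4:**
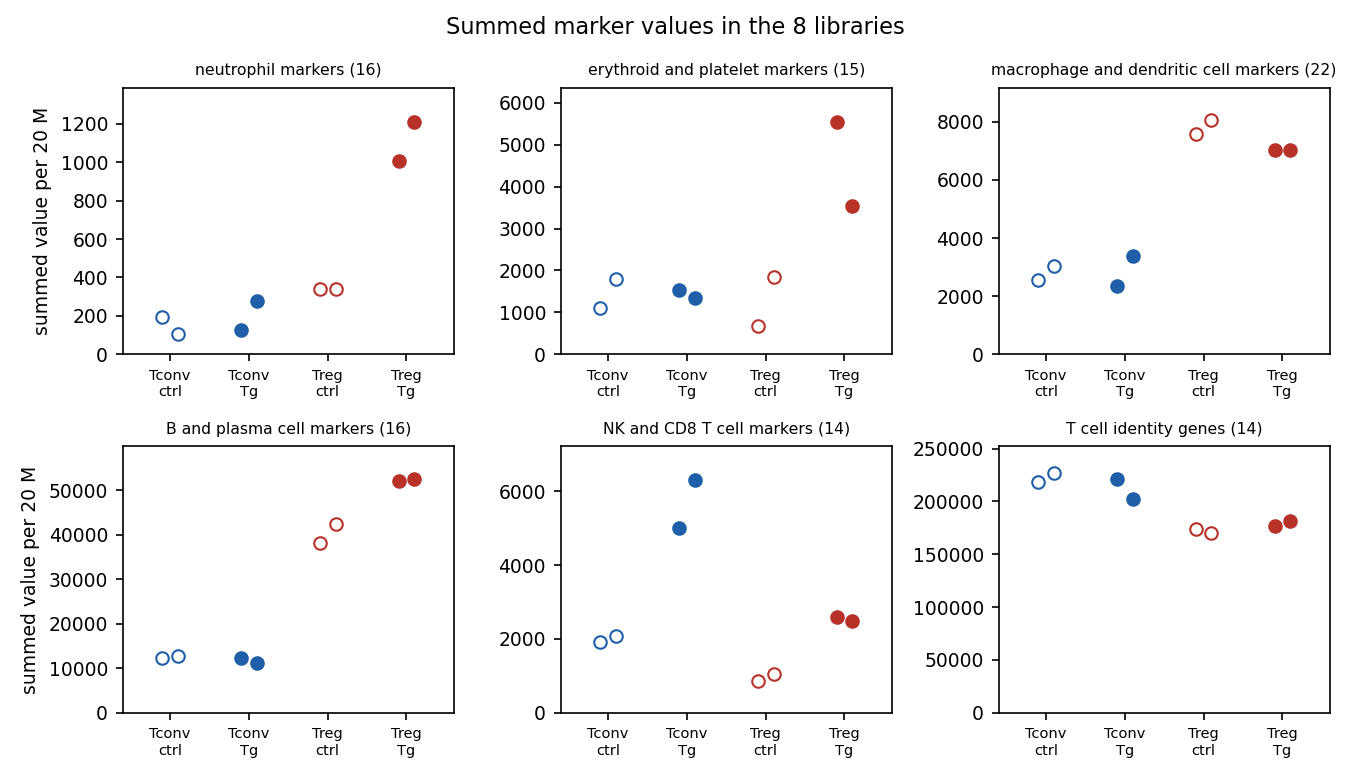
The plots of summed markers give for 6 lists the sum of the values (per 20 M reads, linear axis from 0) in each of the 8 libraries, with open circles for control and filled circles for CD70Tg, blue for Tconvs and red for Tregs, and the number of genes in brackets. The neutrophil and erythroid sums are highest in the 2 CD70Tg Treg libraries, whereas the macrophage sum is high in all 4 Treg libraries.

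Among the remaining genes with the higher response in Tregs were receptors, enzymes and regulators. Il13ra1, a chain of the receptors for IL-4 and IL-13, was 13 and 21, then 9 and 10 in Tconvs, and 25 and 36, then 209 and 202 in Tregs (difference 3.16 ± 0.61, adjusted p = 0.016, lost without F3, F4, F5 or F6 at up to 0.078, with voom on reads at 0.057 and after thinning at 0.38). It reached the minimum value only through the CD70Tg Treg libraries. Epas1, the hypoxia-inducible factor HIF-2 alpha, was 720 and 620, then 680 and 968 in Tconvs, and 88 and 92, then 345 and 289 in Tregs (difference 1.48 ± 0.31, adjusted p = 0.024, lost without F1, F2, F5, F6 or F7 at up to 0.11). Padi2, a peptidyl arginine deiminase, was 1605 and 1762, then 1703 and 2046 in Tconvs, and 709 and 920, then 2257 and 2300 in Tregs (difference 1.34 ± 0.20, adjusted p = 0.0034). The call of Epas1 was also lost with voom on reads (adjusted p = 0.31) and after thinning (0.13). In Padi2 and Epas1, control Tregs lay below Tconvs. Under the transgene the difference between Tregs and Tconvs was 0.29 for Padi2 and did not pass (adjusted p = 0.12), and Epas1 remained lower in Tregs.

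Pnkd, a hydrolase-like protein, was 500 and 442, then 401 and 533 in Tconvs, and 651 and 635, then 1819 and 1675 in Tregs (difference 1.46 ± 0.24, adjusted p = 0.0049). Rgs2, a regulator of G protein signalling, fell in Tconvs by 0.66 and rose in Tregs by 0.68 on the log2 scale (difference 1.33 ± 0.24, adjusted p = 0.01). Paqr8, a membrane progestin receptor, rose in Tregs from 277 and 268 to 586 and 533 (difference 1.46 ± 0.28, adjusted p = 0.018, lost without F3, F4, F5, F6 or F7 at up to 0.08). The calls of Padi2, Pnkd, Car2 and Rgs2 held without each library in turn. After thinning, those of Padi2 (adjusted p = 0.065), Pnkd (0.2) and Car2 (0.076) were lost, and that of Rgs2 was lost with voom on reads (0.053).

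Eno1b was the only gene of this direction that fell in both subsets. This enolase gene was 1138 and 1030 in control and 15 and 5 in CD70Tg Tconvs, and 602 and 565 in control and 84 and 49 in CD70Tg Tregs. It fell by 6.27 in Tconvs and by 3.08 in Tregs on the log2 scale, and the difference was 3.18 ± 0.48 (adjusted p = 0.0029). It is a close copy of Eno1, with which it may share reads.

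The gene lists, also those above, were chosen with earlier results of these data known, and some genes are in more than one list. Their shares of called genes depend on that choice and are a description. Inhibitory receptors were called as higher in Tconvs in 5 of 12 tested members of the list of 15 (41.7%, beside 0.827% of all genes tested), and none as higher in Tregs. All 12 differences were below 0, as were 61.1% of those of all genes tested, and the median was -1.93 against -0.08. Beside Havcr2 and Entpd1, the 5 were Pdcd1, Ctla4 and Klrg1. Pdcd1, which encodes PD-1, was 1867 and 547, then 3812 and 5157 in Tconvs, and 1835 and 1826, then 1892 and 1800 in Tregs (difference -2.11 ± 0.48, adjusted p = 0.042). Its response in Tregs was 0.01, and the spread lay in the control Tconvs. Ctla4 was 493 and 496, then 663 and 1090 in Tconvs, and 10142 and 10898, then 8453 and 8890 in Tregs (difference -1.05 ± 0.24, adjusted p = 0.041). Klrg1, a receptor of terminally differentiated effectors, rose in both subsets (difference -2.09 ± 0.42, adjusted p = 0.021).

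These 3 calls were the least stable of the list. The difference of Pdcd1 was -3.0 to -1.23 with a library left out, and its call was lost without any of F4 to F8 (adjusted p at most 0.21), with a pseudocount of 1 (0.064), TMM or median-of-ratios factors (0.1), voom on reads (0.21), thinning (0.17) and clone-named rows kept (0.053). The call of Ctla4 was lost without any of F3 to F8 (at most 0.18), and that of Klrg1 without F4, F6, F7 or F8 (at most 0.1). Both were also lost with TMM and median-of-ratios factors, voom on reads and thinning, and that of Ctla4 with a pseudocount of 1 (adjusted p at most 0.065 for Ctla4 and 0.21 for Klrg1). Lag3 was 1331 and 239, then 5818 and 8013 in Tconvs, and 2543 and 1826, then 4190 and 4453 in Tregs, with a difference of -2.58 that did not pass (adjusted p = 0.078). Tigit was 1274 and 360, then 3037 and 4315 in Tconvs, and 6410 and 7163, then 8652 and 8607 in Tregs, with a difference of -2.06 that did not pass (adjusted p = 0.06). The difference of Tigit was -2.96 without F1 (adjusted p = 1.9e-07), -2.31 without F2 (0.047) and -1.15 without F3 (0.011), so that it passed without each of these, and also with a pseudocount of 20 (0.04) or a value above 10 in every library (0.045). Vsir and Btla had differences of -0.09 and -0.10.

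Genes of effector Tregs were called as higher in Tconvs in 7 of 26 tested members (Ctla4, Klrg1, Il10, Il1rl1, Entpd1, Prdm1 and Irf4), which is 26.9% beside 0.827% of all genes tested, with a median difference of -0.67. Il1rl1, which encodes the IL-33 receptor ST2, was 37 and 28, then 196 and 389 in Tconvs, and 675 and 657, then 962 and 881 in Tregs (difference -2.45 ± 0.39, adjusted p = 0.0044, lost after thinning at 0.37). Irf4, a transcription factor of activated T cells, rose in Tconvs by 0.74 and changed by -0.65 in Tregs without passing the test (difference -1.39 ± 0.30, adjusted p = 0.033, lost without any of F4 to F8 at up to 0.15). The call of Irf4 was also lost with TMM factors (adjusted p = 0.061), median-of-ratios factors (0.058), voom on reads (0.14) and thinning (0.22). The genes that define the lineage did not pass, with differences of 0.11 for Foxp3, -0.24 for Ikzf2 and -0.01 for Il2ra. In Tconvs Foxp3 was 1039 and 1497 in controls and 1170 and 1285 under the transgene.

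A list around IL-10 held 15 genes, among them regulators, its receptor chains and Havcr2. All were tested and 6 were called as higher in Tconvs (Il10, Prdm1, Irf4, Havcr2, Bhlhe40 and Il10ra), which is 40.0% beside 0.827% of all genes tested. All 15 differences were below 0 (61.1% among all genes), with a median of -0.96. Bhlhe40, a repressor of Il10, was 366 and 216, then 3127 and 5936 in Tconvs, and 549 and 583, then 2195 and 2561 in Tregs (difference -1.86 ± 0.35, adjusted p = 0.013, lost without F4 or F6 at up to 0.082). Il10ra, the ligand-binding chain of the IL-10 receptor, rose in Tconvs by 1.63 (difference -1.17 ± 0.20, adjusted p = 0.0077, lost without F7 or F8 at up to 0.052). The call of Bhlhe40 was also lost with voom on reads (adjusted p = 0.2) and after thinning (0.065), and that of Il10ra after thinning (0.065). Maf and Ahr had differences of -0.95 and -0.96 that did not pass (adjusted p = 0.26 and 0.31).

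Type 1 effector genes were called as higher in Tconvs in 5 of 26 tested members (among them Adgrg1, Gzmb, Ccl3 and Il2rb), which is 19.2% beside 0.827% of all genes tested, with a median of -0.52. Markers of other cytotoxic cells were also higher in CD70Tg Tconvs. The NK and CD8 T cell markers, with 10 of 14 tested, summed to 1927 and 2081, then 5021 and 6301 in Tconvs, and to 869 and 1048, then 2605 and 2498 in Tregs, a list that includes Eomes and Gzma, and the NK receptor Ncr1 was at most 2. Of these, Cd8a was 17 and 28, then 508 and 608 in Tconvs, and 25 and 71, then 262 and 223 in Tregs (difference -2.01, adjusted p = 0.11), whereas Cd8b1 was 703 and 653, then 1055 and 982 in Tconvs. No member of the list was called. Cells bearing DX5 or CD8 beta were depleted and the sort took CD4+ cells. The part of NK and CD8 T cells in the differences of Adgrg1, Gzmb, Ccl3 and the list was not tested.

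Il2rb, the shared beta chain of the IL-2 and IL-15 receptors, was 6410 and 7075, then 13098 and 14868 in Tconvs, and 33637 and 30872, then 36340 and 34608 in Tregs (difference -0.91 ± 0.18, adjusted p = 0.016, lost without F5, F6 or F8 at up to 0.096, and with TMM factors at 0.12). Other members rose in both subsets and did not pass for the difference. Eomes, a T-box factor of cytotoxic and memory cells, rose by 3.33 in Tconvs and 4.09 in Tregs (difference 0.76, 95% interval 0.19 to 1.32 before adjustment, adjusted p = 0.26). Nkg7 rose by 3.70 and 3.20 (difference -0.50, adjusted p = 0.46), Cxcr3 by 1.25 and 1.64 (difference 0.38, adjusted p = 0.6), and Prf1 by 1.33 and 2.16 (difference 0.83, adjusted p = 0.077). Prf1 passed as higher in Tregs with TMM factors (0.92, adjusted p = 0.02), with median-of-ratios factors (0.91, adjusted p = 0.022) and without F3 (0.98, adjusted p = 0.046). Ifng was 105 and 72, then 718 and 2111 in Tconvs, and 64 and 71, then 168 and 300 in Tregs, with a difference of -2.08 that did not pass (adjusted p = 0.1) and that passed without F2 (-2.86, adjusted p = 0.0044).

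**Figure D5:**
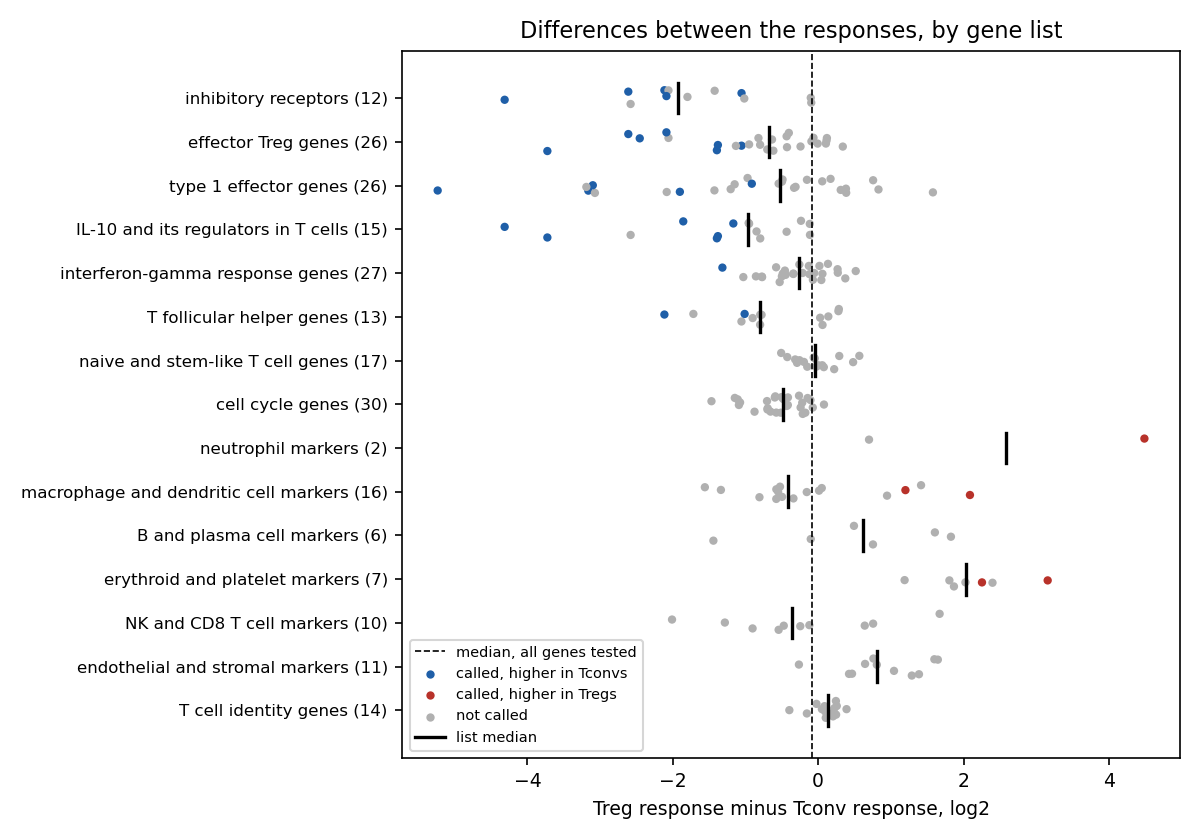
The plot by gene list gives for each of 15 lists the difference between the Treg and the Tconv response (log2) of its tested members, whose number is in brackets, with blue for called as higher in Tconvs, red for called as higher in Tregs, grey for not called, a bar for the list median and a dashed line for the median of all genes tested (-0.08). The inhibitory receptors lie lowest with a median of -1.93, against -0.08 for all genes. Markers that reached the minimum value only in the CD70Tg Tregs had to lie to the right.

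Of the 27 tested interferon-gamma response genes 1 was called as higher in Tconvs (3.7%, beside 0.827% of all genes tested), Gbp3, a guanylate-binding GTPase (difference -1.32 ± 0.21, adjusted p = 0.0044, lost after thinning at 0.13), and the median was -0.26. Of 13 tested T follicular helper genes, Pdcd1 and Tox were called as higher in Tconvs (15.4%, beside the same 0.827%), Tox with a difference of -1.01 ± 0.19 (adjusted p = 0.013, lost without F4, F6 or F7 at up to 0.096).

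No member was called among 17 naive and stem-like T cell genes (median difference -0.05) or among 30 cell cycle genes. Of the cell cycle genes 29 had a difference below 0 (61.1% among all genes), with a median of -0.49. Their summed value was 17431 and 15487 in control Tconvs, 19567 in F2 and 29072 in F4, and 19973 and 19864 in control and 23211 and 24281 in CD70Tg Tregs, so that F4 stood apart. Mki67, for example, rose in Tconvs by 1.43 (adjusted p = 0.0037), and its change of 0.73 in Tregs did not pass (difference -0.69, adjusted p = 0.6). None of the 14 T cell identity genes was called, and Cd27 itself, the receptor, was 3239 and 2980, then 3129 and 3359 in Tconvs, and 5173 and 5543, then 6123 and 5894 in Tregs (difference 0.10).

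The lists of B and plasma cells and of endothelial and stromal cells held no called gene. The summed B and plasma cell markers were 12271 and 12871 in control and 12327 and 11288 in CD70Tg Tconvs, and 38193 and 42524 in control and 52175 and 52459 in CD70Tg Tregs, mostly from Ighm. Of the 16 markers 6 were tested. Of the 16 endothelial and stromal markers 11 were tested, and the 16 summed to 5194 to 6018 in Tconvs, 4359 and 4911 in control and 5545 and 5412 in CD70Tg Tregs. Of the 11 differences 10 were above 0, with a median of 0.81 against -0.08 for all genes, and 4 of the markers rose in Tregs. The part of these cells in the differences of other genes was not tested. Of 5 sex genes Xist was tested and not called (difference -0.32), and the 4 genes of the Y chromosome were at most 32 in any library.

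The promoters of called genes were searched for the same letters. The table held windows for 70 of the 106 genes with the higher response in Tconvs, with 87 promoters, and for 18 of the 25 with the higher response in Tregs, with 24 promoters. The AP-1 letters were in 10.3% of the former and 4.17% of the latter, beside 6.75% of all promoters. The NF-kB letters were in 9.2% and 0%, beside 4.65%, and the T-box letters in 6.9% and 8.33%, beside 8.61%. The STAT letters were in 5.75% and 8.33%, beside 7.02%, and the interferon response letters in 3.45% and 4.17%, beside 2.98%. These shares rest on at most 9 promoters with a match in a set, and were not tested.

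At the threshold, Fosl2, a member of the AP-1 family with a difference of 1.78 (adjusted p = 0.048), was the called gene nearest to it, and Atp2b4, a calcium pump with a difference of -1.30 (adjusted p = 0.051), was the nearest gene outside. The call of Fosl2 was lost without F1, F4, F6, F7 or F8 (adjusted p at most 0.2), with a pseudocount of 1 (0.059), TMM (0.057) or median-of-ratios factors (0.058), array weights (0.056), voom on reads (0.097), thinning (0.12) and clone-named rows kept (0.056). Atp2b4 passed without F2 (-1.79, adjusted p = 1.4e-04) or F3 (-1.42, adjusted p = 0.038), and with a pseudocount of 20 (0.04), array weights (0.021), all libraries above 10 (0.041) and a mean no lower than 60 (0.048).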

How the data were processed

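RNA was sequenced from 8 libraries of sorted mouse CD4+ T cells, 2 in each of 4 groups. The authors removed adapters with Trimmomatic (version 0.36), mapped reads to mm10 with STAR (2.5.3) and obtained counts per gene with HTSeq (0.9.1). Whether the counting used strand is not given in the sources used here. The score values in the deposited table are these reads scaled to 20 M for each library and rounded up. The number of reads was recovered from the value of 1 read in each library, and is less certain in F1 and F4, where that value is near or under 1. Rounding up limits the precision of low values, and counting error is largest in the Treg libraries, which were the shallowest.

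Rows named after genomic clones (4131, of which 164 reached the minimum) were left out, and of rows that share a name (97 names) the one with the largest total kept it. The test was limma 3.58.1 in R 4.3.3 on log2(value + 5), so that fold changes of low genes are understated. A coefficient was fitted for each group with a trend in the prior variance (prior degrees of freedom 12.3), over all 8 libraries. Adjustment followed Benjamini and Hochberg over the 12816 genes, and each adjusted p given is from limma. A gene was called at an adjusted p under 0.05. Where neither library of the control group exceeded the value of 3 reads, the fold is a lower bound from that value, and other folds are ratios of means. Positions are those of GENCODE M21 (GRCm38), which held 99.7% of the identifiers.

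The genes named were those proposed as markers of this contrast (Adgrg1, Havcr2, Il10, S100a9 and Gda), the 12 called genes with the largest difference in each direction, the 4 with the smallest adjusted p in each class, called members of 16 gene lists with up to 4 other members of each as examples, genes the study names for these libraries, and the genes nearest to the threshold. Cd38, Cst7, Rgs1, Runx2 and Myo6 and further members of the lists were named after their values were seen. Results for a few of the genes so chosen are not given here. The members and lists were chosen with earlier results of these data known. Tested on simulated data with 200 of 12816 genes changed 4-fold, the procedure recovered 90.5% of them, with 4 false calls among 185. The change was placed in the CD70Tg Tregs alone, with no other group effect, and every gene was given the same spread. Real genes differ in spread, so that these shares do not carry over to the calls given here. The alternatives were other pseudocounts, minimum values, scaling factors and weights, voom on reads, thinning, keeping clone-named rows and leaving out each library. Expression of the CD70 transgene was not analysed here.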

Additional observations from a re-analysis of the deposited data

Results flagged for a closer look

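The responses of Tregs and Tconvs differed by the test of the difference itself in the 5 genes proposed as markers of this contrast and in the genes with the largest differences in each direction. On the log2 scale, with negative values for a higher response in Tconvs, the difference was -5.23 for Adgrg1, -4.31 for Havcr2, -3.88 for 4931431B13Rik, -3.73 for Itgad, -3.72 for Il10 and -3.62 for Gcg. It was -3.20 for Car5b, -3.16 for Ccl3, -3.16 for Serpinb1a, -3.14 for Ncald, -3.11 for Kcnk5 and -3.10 for Gzmb. With the higher response in Tregs, it was 4.50 for Gda, 4.49 for S100a9, 3.18 for Eno1b, 3.16 for Il13ra1, 3.16 for Slc4a1 and 3.06 for Aqp1. It was 2.25 for Car2, 2.09 for Itgam, 1.90 for the second row named Itgam (ENSMUSG00000108596), 1.78 for Fosl2, 1.48 for Epas1 and 1.46 for Paqr8. Serpinb1a, an inhibitor of neutrophil proteases, was 21 and 30 in control Tconvs, 101 and 422 in CD70Tg Tconvs, 93 and 62 in control Tregs and 63 and 55 in CD70Tg Tregs. Its call (adjusted p = 0.04) was lost without F1, F4, F5, F6, F7 or F8, with an adjusted p of at most 0.2. With voom on reads (adjusted p = 0.32) and after thinning (0.35) the call of Serpinb1a was lost as well. The call of Fosl2 (adjusted p = 0.048) was lost without F1, F4, F6, F7 or F8 and with most other settings. Those of 4931431B13Rik and the second row named Itgam were lost as given above. Gcg and Ncald reached the minimum value only through CD70Tg Tconvs, and Gda, S100a9, Il13ra1 and Slc4a1 only through CD70Tg Tregs. The groups hold 2 libraries each, too few for a test of single outlying libraries.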

How the results depend on the processing

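All 131 called genes kept the sign of their difference under every alternative that tested them, and 21 stayed past the threshold under every alternative other than no minimum value. The number called was 110 with a pseudocount of 1, 159 with a pseudocount of 20, 113 with TMM factors, 106 with median-of-ratios factors, 139 with array weights, 133 with a mean of at least 60, 126 with a value above 10 in every library and 123 with clone-named rows kept. TMM factors gave 71.7% of calls as higher in Tconvs, against 80.9%. With no minimum value 0 genes were called in any direction or class. With voom on reads 63 genes were called, 11 higher in Tregs and 52 higher in Tconvs, with 46 already high in control Tregs, 2 high in control Tconvs, 15 level in controls and 0 silent in either subset. After thinning 31 were called, 2 higher in Tregs and 29 higher in Tconvs, with 25, 1, 5 and 0 in the same classes. At an adjusted p under 0.01, 48 were called, 5 and 43 in each direction. Genes silent in Tconvs numbered 0 with a pseudocount of 1 or a value above 10 in every library, 7 with a pseudocount of 20 and 1 with a mean of at least 60. Genes silent in Tregs numbered 0, 0 and 6 with the first 3 of these. The cause of these changes was not tested.

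Leaving out each library in turn gave 62 to 269 called genes, 9 to 34 higher in Tregs and 47 to 235 higher in Tconvs, with 37 to 155 already high in control Tregs, 6 to 13 high in control Tconvs, 15 to 104 level in controls, 0 to 5 silent in Tconvs and 0 to 4 silent in Tregs. With a library left out, the lone sample of its group is assumed to vary like the other groups. No paired analysis was possible because the columns of the table carry no replicate numbers. For the differences of 36 genes (Adgrg1, Havcr2, Il10, S100a9, Gda, those with the largest difference or smallest adjusted p, and the 2 nearest to the threshold), 504 values under the alternatives kept their direction and their side of the threshold, 162 no longer passed, 6 newly passed and 0 reversed.

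The Treg libraries, with 1.9 to 4.52 M reads, limit the genes at low values. Differences that rest on values under about 3 reads, as for Gda, S100a9, Gcg and Ncald, had standard errors of 0.68 to 0.89.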
